A study of Mus musculus with 41 samples.

Results

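The genes described here are 10 mouse genes whose activity is normally kept to the germline, namely Piwil2, Tex11, Piwil4, Mael, Ddx4, Dazl, Tdrd1, Tex101, Sycp3, and Stag3. They were followed in RNA sequencing counts of 6 mesothelioma cell lines, in a table of 27197 genes. Piwil2 and Tex11 were chosen by their read counts, which differed between the BNC and the NC lines of this table, and the other 8 were added to see whether further genes of the same programs behave alike. The difference that chose Piwil2 and Tex11 is therefore described without a test. All 10 genes had a row in the table, 7 had more than 3 reads in at least 1 line, and 3 (Piwil2, Tex11, and Ddx4) passed the filter on low counts. That filter keeps a gene that is high in 1 group alone, so passing it carries no information on the direction.

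Germ cells silence transposons with PIWI-interacting RNAs (piRNAs), short RNAs loaded on PIWI proteins such as those encoded by Piwil2 and Piwil4. Tudor domain proteins such as Tdrd1, the helicase Ddx4, and Mael act with them in cytoplasmic granules of germ cells. Meiosis uses a separate set of proteins. Tex11 takes part in crossing over, Sycp3 is a structural part of the chromosome axis, and Stag3 is a cohesin subunit of meiotic chromosomes. Dazl is an RNA-binding regulator of germ cell development, and Tex101 encodes a surface protein of male germ cells. In somatic cells many such genes are held silent by DNA methylation of their promoters and by a Polycomb complex that contains E2F6, MGA, and L3MBTL2. Reactivation of single germline genes in tumors is well known, and the products are often called cancer-testis antigens.

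BNC lines carry the genotype Bap1-/-;Nf2-/-;Cdkn2ab-/- and NC lines the genotype Nf2-/-;Cdkn2ab-/-, so that loss of Nf2 and Cdkn2ab is common to all 6 lines. As the methods of the study describe, deletion was started in mice a few weeks of age and of mixed background by an adenovirus with Cre under the CMV promoter, injected into the chest. The virus can infect any cell it reaches, the Ink4a and Ink4b deletions of the Cdkn2ab allele were present in the germline, and the lines were grown out of chopped tumors and used at early passage. JB81, JB91, and JB97 belong to the BNC group, whereas JB84, JB87, and JB93 are the NC lines. The total count was 23936922 reads for JB81, 23772111 for JB91, 20231284 for JB97, 13685421 for JB84, 12377675 for JB87, and 18999233 for JB93. A count of 3 reads, taken as the floor of detection, equals 0.133 to 0.247 CPM (counts relative to the library total, scaled by the TMM method of edgeR), and this floor covers counting error only.

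The 6 lines were not equally independent. JB81 and JB91 differed more than 2-fold in 5 of the 10511 genes that had 100 or more reads between them, and JB84 and JB93 in 8 of 10545. The other pairs within a group differed in 14.7% to 23.7% of genes, and JB97 (BNC) had fewer such genes against JB87 (NC), 13%, than against JB81 or JB91. Each line was kept under its own name. The counts of the near-identical pairs differed by more than sampling noise, but separate libraries of 1 tumor would do so too. If such a pair shares a tumor, the p-values measure in part a technical spread.

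The genes deleted in the mice serve as a check of the labels. Bap1 had 43.2, 44.1, and 38.0 CPM in JB81, JB91, and JB97 and at 61.5, 60.6, and 64.3 CPM in JB84, JB87, and JB93, so every BNC line was below every NC line, although reads from exons outside the deletion are counted as well. Nf2 was read at 88.3 to 123 CPM in the 6 lines, with overlapping groups. Cdkn2a had at most 12 reads in any line and Cdkn2b at most 1.

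Markers of the tissue of origin differed among the lines too. Of 12 mesothelial markers, only Calb2 was at 0 in every line. Msln, which encodes mesothelin, was read at 0.221 and 0.442 CPM in JB81 and JB91, against 230 CPM in JB97 and 2064, 901, and 2151 CPM in JB84, JB87, and JB93. The keratin gene Krt18 had 0, 1, and 19 reads in JB81, JB91, and JB97 and 894, 1890, and 1222 in the NC lines. Wt1, a transcription factor of the mesothelium, was between 76.9 and 132 CPM in all 6 lines. The summed level of the 12 markers was 13620 CPM in JB81, 13693 in JB91, 6513 in JB97, 4736 in JB84, 8101 in JB87, and 4899 in JB93, with Vim the most abundant gene in 4 of the lines and Msln in JB84 and JB93. Msln was thus near the floor in JB81 and JB91 but not in JB97. Krt18 (adjusted p = 0.0187, edgeR) and Krt8 (adjusted p = 0.0457, edgeR) were lower in all 3 BNC lines than in any NC line, the division also seen in Piwil2 and Tex11. In JB81 and JB91 both had at most 7 reads, so they passed the filter on low counts only with the help of the NC lines. Their tests therefore carry no information on the direction. Krt18 and Krt8 were the 2 of 11 tested markers past 0.05, against 11.6% of all tested genes, and with 1 line left out their adjusted p reached 0.0985 and 0.146. Every NC line was above every BNC line in 5 of the 11 (45.5%, against 21.4% of all tested genes). Msln, Krt8, and Krt18 are among the 5 and passed the filter in that way, so nothing is read from this share. The reverse held for 0 of the 11, against 20.1% of all tested genes. Other markers had higher means in BNC lines, Vim at 12790, 12860, and 4434 CPM in JB81, JB91, and JB97 against 1317, 4540, and 1343 CPM in JB84, JB87, and JB93 (adjusted p = 0.0885, edgeR), and Cdh2 with a log2 fold change of 0.89 (adjusted p = 0.323, edgeR). The part of these markers in the germline gene result was not tested. In such bulk RNA a gene read in fewer cells and a gene with less RNA per cell cannot be told apart.

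Piwil2 and Tex11 were read in all 3 NC lines and were near or at 0 in all 3 BNC lines. Piwil2 (ENSMUSG00000033644, chromosome 14 of GRCm38, 70372477 to 70429383, minus strand) had 13, 8, and 7 reads in JB81, JB91, and JB97 and 1255, 1176, and 1807 reads in JB84, JB87, and JB93. The mean over BNC lines was 0.43 ± 0.126 CPM (SD, n = 3), and the mean over NC lines was 89.8 ± 6.28 CPM (SD, n = 3), a ratio of 209. The 3 NC lines lay close together, although JB87 differs widely from JB84 and JB93 in other genes. Per length (RPKM), Piwil2 stood at 16.1, 18.3, and 16.5 in JB84, JB87, and JB93, above 75.7% to 77.6% of the 12376 tested genes, and in the BNC lines above 2.54% to 5.58%.

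Tex11 (ENSMUSG00000009670, chromosome X, 100838648 to 101059667, minus strand) had no read in JB81, JB91, and JB97 and 449, 439, and 530 reads in JB84, JB87, and JB93. Its NC level was 30.7 ± 5.31 CPM (SD, n = 3), at least 220-fold above the floor of 3 reads per BNC line. Per length it stood at 8.41, 9.98, and 7.06 RPKM in the NC lines, above 53% to 63% of tested genes. Piwil2 exceeded Tex11 per length by a ratio of 1.92 in JB84, 1.84 in JB87, and 2.34 in JB93. No exon of either gene is shared with another annotated gene.

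**Figure D1:**
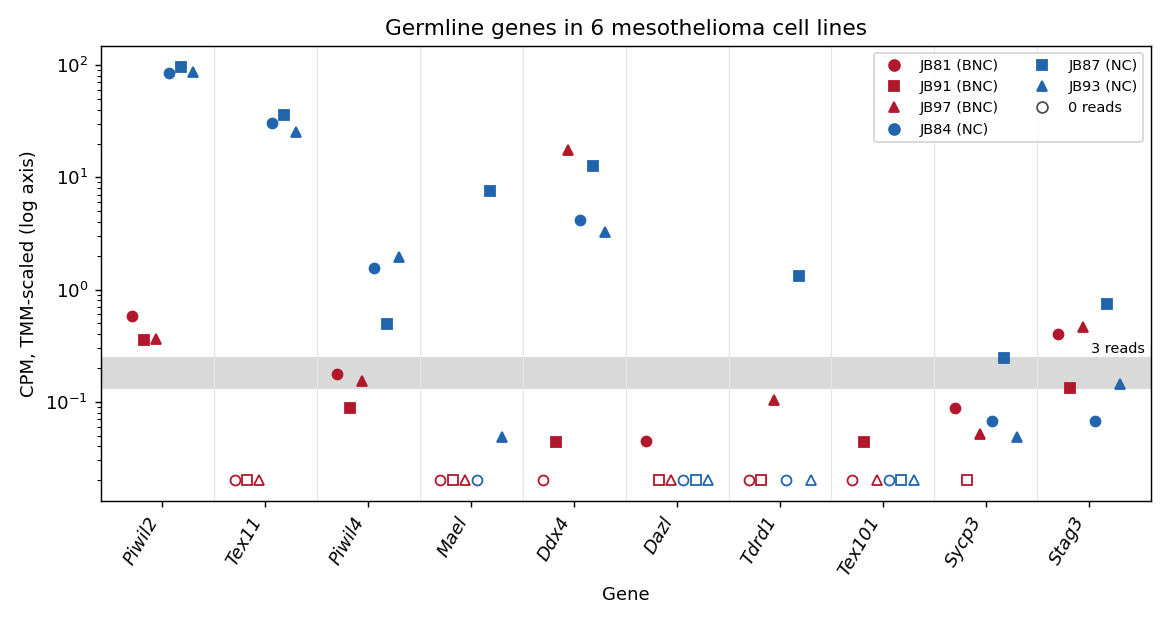
TMM-scaled CPM (log axis) of the 10 germline genes in each of the 6 lines, BNC in red and NC in blue, with open symbols at the bottom for 0 reads and a grey band for the level of 3 reads (0.133 to 0.247 CPM). Piwil2 and Tex11 are high in the 3 NC lines alone, Ddx4 is also high in the BNC line JB97, and Mael and Tdrd1 stand out in JB87.

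Among the other piRNA genes of the 10, Ddx4 was the most abundant, but it did not follow the same division. Ddx4 (ENSMUSG00000021758, chromosome 13, 112598333 to 112652475, minus strand) had 0 and 1 reads in JB81 and JB91, 337 reads in the BNC line JB97, and 61, 153, and 67 reads in JB84, JB87, and JB93. The highest line was thus a BNC line, at 17.4 CPM, and the groups overlapped. Among the lines that read it, JB97 and JB87 (12.6 CPM) were above JB84 (4.14 CPM) and JB93 (3.23 CPM). Per length, Ddx4 in JB97 (5.76 RPKM) stood above 48.7% of tested genes.

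Mael (ENSMUSG00000040629, chromosome 1, 166201201 to 166238747, minus strand) had 92 reads in JB87, 1 read in JB93, and none in the other 4 lines. At 7.58 CPM it was above the floor in JB87 alone, so the NC group as a whole was not distinguished by it. Tdrd1 (ENSMUSG00000025081, chromosome 19, 56826209 to 56870012, plus strand) likewise had 16 reads in JB87, 2 in JB97, and none elsewhere. Piwil4 (ENSMUSG00000036912, chromosome 9, 14696230 to 14740733, minus strand) was low throughout, with 4, 2, and 3 reads in JB81, JB91, and JB97 and 23, 6, and 40 reads in JB84, JB87, and JB93. Its NC lines were above its BNC lines without overlap, at 1.33 ± 0.745 against 0.14 ± 0.0461 CPM (SD, n = 3). Piwil4 shares 137 bp of exon sequence with genes on the opposite strand, and without a stated strand setting their reads cannot be told apart.

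The other meiotic and germ cell genes of the set (Dazl, Tex101, Sycp3, and Stag3) were at or near the floor in both groups. Dazl (ENSMUSG00000010592, chromosome 17, 50279395 to 50293636, minus strand) had 1 read in JB81 and none in the other lines, and Tex101 (ENSMUSG00000062773, chromosome 7, 24668007 to 24676675, minus strand) had 1 read in JB91 and none in the other lines. Sycp3 (ENSMUSG00000020059, chromosome 10, 88459569 to 88473236, plus strand) had 0 to 3 reads per line, and it shares 660 bp of exon sequence with Chpt1 on the opposite strand. Stag3 (ENSMUSG00000036928, chromosome 5, 138280240 to 138312393, plus strand) had 9, 3, and 9 reads in JB81, JB91, and JB97 and 1, 9, and 3 reads in JB84, JB87, and JB93. Transcripts of Dazl, Tex101, and Sycp3 were therefore not detectable above 3 reads at this depth in any line, and those of Stag3 gave at most 0.742 CPM.

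Counted by line, 7 of the 10 genes were above the floor in JB87, 4 in JB84, 4 in JB93, 3 in JB81, 3 in JB97, and 1 in JB91. Every NC line was above every BNC line in 3 of the 10 genes (Piwil2, Tex11, and Piwil4), and the reverse held for 0. Over all tested genes 21.4% had every NC line above every BNC line, and 20.1% had the reverse. The rule used this contrast, so nothing is read from that count. The mean difference in log2(CPM + 1) between NC and BNC lines was 5.99 for Piwil2 and 4.97 for Tex11, and with any 1 line left out it stayed within 5.93 to 6.06 and 4.85 to 5.10. For Mael it was 1.06 and dropped to 0.034 without JB87. For Ddx4 it was 1.32 and ranged from 0.606 to 2.71, the highest value being the one without JB97.

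Library names carry 2 prefixes, of which one is shared by JB81, JB84, and JB87 and the other by JB91, JB97, and JB93. Within the first, Piwil2 was at 85.2 and 96.9 CPM in the NC lines and 0.576 CPM in the BNC line. Within the second it was at 87.2 CPM in the NC line and at 0.354 and 0.361 CPM in the BNC lines. Tex11 was at 0 in every BNC line of both. Each prefix holds 2 lines of one group and 1 of the other, so a comparison within it rests on a single line of a group.

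The promoters of these genes were compared by sequence, which is independent of the read counts. RefSeq promoter windows of GRCm38, from 250 bases before to 50 bases after the start, were matched for 8 of the 10 genes, Piwil2 and Tex11 being those without an entry, and the first window listed for a gene was used. The ratio of observed to expected CpG dinucleotides had a median of 0.756 over the 8 windows, from 0.543 in Piwil4 to 1.06 in Stag3, and a median of 0.389 over all 27025 windows. CACGTG, the E-box bound by MAX and its partners, including MGA, reads the same on both strands and was found in 5 of the 8 windows (62.5%), against 7.24% of all windows. TCCCGC, a core of E2F sites searched on both strands, was found in 4 of 8 (50%), against 20% of all. Mael, Ddx4, Sycp3, and Stag3 had both motifs, Tdrd1 had only the E-box, and Piwil4, Dazl, and Tex101 had neither. The E-boxes are printed with 10 bases on each side, because they are the feature most of these promoters share. Capitals mark the motif, and the sequence is given 5′ to 3′ on the strand of the gene.
Mael, chr1:166238952-166238977: ccaggcctacCACGTGacaatccccg
Ddx4, chr13:112652324-112652349: cgtccgcccgCACGTGcagccgttta
Tdrd1, chr19:56826188-56826213: gggctgcgcgCACGTGggagtaaact
Sycp3, chr10:88459513-88459538: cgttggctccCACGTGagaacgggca
Sycp3, chr10:88459534-88459559: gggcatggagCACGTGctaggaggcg
Stag3, chr5:138280329-138280354: cgctggagccCACGTGacaggactgc

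Relative to the RefSeq start of the window, the motif began at position -11 in Tdrd1, -29 in Ddx4, -43 and -64 in Sycp3, -170 in Stag3, and -223 in Mael. For Ddx4 and Stag3 both that start (112652310 and 138280509) and the E-box lie inside the GENCODE gene span given above. For Mael and Sycp3 the start (166238744 and 88459587) lies inside the span too, but the E-boxes lie outside it. Ddx4 and Mael, with an E-box, were read in some lines, whereas Sycp3, with a pair of E-boxes, was at or under 3 reads in every line. Piwil4, without one, had up to 40 reads. A match describes the letters of the window and shows neither binding nor methylation.

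**Figure D2:**
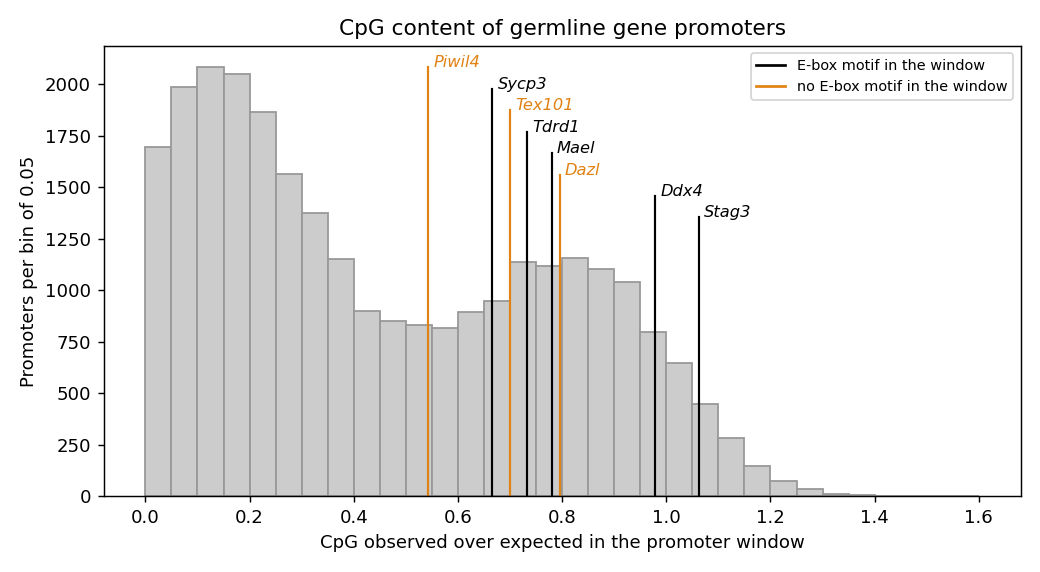
Histogram of the observed over expected CpG ratio of all 27025 promoter windows (x axis, bins of 0.05, y axis, number of promoters; 1 window beyond 1.6 is not drawn), with a vertical line at the ratio of each of the 8 germline genes. The 8 genes lie between 0.543 and 1.06, above the median of 0.389, and the line heights only separate the names.

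Other germline genes were then read from lists drawn up by function, with earlier results of these data known. The lists hold 28 genes of the piRNA pathway, 39 of meiosis, 24 of germ cell identity, and 12 of late spermatogenesis that have a row in the table. Of these 103 genes, 62 had at most 3 reads in every line and 18 had enough reads to be tested. A gene was called if it differed more than 2-fold at a Benjamini-Hochberg adjusted p under 0.01 in the quasi-likelihood test of edgeR. Of the 18 genes 0 were called, against 136 of 12376 genes (1.1%) in the whole test, with 0.654% of tested genes called higher in NC lines and 0.444% called higher in BNC lines. At an unadjusted p under 0.05 there were 9, against 35.6% of all tested genes. DESeq2 tested 29 of the listed genes and called 7 at the same threshold, 6 higher in NC lines and 1 higher in BNC lines, against 14.8% of all its genes. Pnldc1, Exd1, and Msh5 are among the 6 and owe their reads mainly to NC lines, so their direction is not read as a result. At an adjusted p under 0.05, 3 of the 18 were higher in NC lines (7.34% of all tested genes) and 1 was higher in BNC lines (4.26% of all tested genes). The median log2 fold change (BNC over NC) was -0.14 over the 18 genes and -0.0023 over all tested genes. Every NC line was above every BNC line in 9 of the 18 genes (50%, against 21.4% of all tested genes), the reverse held for 2 (11.1%, against 20.1%), and the groups overlapped in the other 7. Among the 9, Pnldc1, Exd1, Msh5, and Tdrkh passed the filter on low counts only with the help of the NC lines. Nothing is therefore read from the 50%.

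All 4 genes past 0.05 belong to the piRNA list, of which 7 genes were tested (11.6% of all tested genes passed 0.05). Of the 4, 3 were higher in NC lines and 1 was higher in BNC lines. Tdrd7, a tudor domain gene also used in the lens, was read at 14.1, 15.7, and 22.9 CPM in JB81, JB91, and JB97 and at 94.1, 47.0, and 89.9 CPM in JB84, JB87, and JB93. Every NC line was at least as high as 47.0 CPM, and the log2 fold change was -2.13 (SE 0.34, adjusted p = 0.0188, edgeR). Pnldc1, which encodes the nuclease that trims piRNA ends, had 3, 1, and 1 reads in BNC lines and 12, 14, and 23 reads in NC lines, with a log2 fold change of -3.63 (SE 0.54, adjusted p = 0.0165, edgeR). Exd1, a partner of the piRNA machinery, had 10, 5, and 9 reads in BNC lines and 36, 21, and 49 reads in NC lines, a log2 fold change of -2.52 (SE 0.42, adjusted p = 0.021, edgeR). Pnldc1 was at or under the floor in every BNC line and passed the count filter through the NC lines alone, so it had to differ. Exd1, with at most 10 reads in any BNC line, was under the depth-scaled cutoff of that filter there and likewise passed through the NC lines alone. The direction of both genes was therefore fixed by the filter, and their tests add nothing to it. Without Pnldc1, 17 genes of the 4 lists are left, of which 2 (Tdrd7 and Exd1) were higher in NC lines at 0.05. Every NC line was above every BNC line in 8 of the 17, Exd1, Msh5, and Tdrkh among them. Msh5 (8, 8, and 11 reads in JB81, JB91, and JB97) and Tdrkh (2, 6, and 43 reads) were over that cutoff in JB97 alone of the BNC lines. Both passed only with the help of the NC lines, so nothing is read from their order. The others are Tdrd7, Prdm9, Mlh3, Ythdc2, and Zbtb16. With Exd1 left out too, Tdrd7 is the only gene higher in NC lines at 0.05.

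Tdrd3, a tudor domain gene expressed in many tissues, changed in the other direction. It was read at 51.8, 53.7, and 40.5 CPM in BNC lines and at 23.3, 22.7, and 21.2 CPM in NC lines (log2 fold change 1.12, SE 0.16, adjusted p = 0.0156, edgeR). None of the 4 kept an adjusted p under 0.05 with every line left out in turn, the highest edgeR values being 0.103 for Tdrd7, 0.11 for Pnldc1, 0.115 for Exd1, and 0.0975 for Tdrd3. Mybl1, the transcription factor that turns on piRNA genes in meiotic cells, had 65.5, 59.0, and 17.9 CPM in JB81, JB91, and JB97 and 24.4 to 27.8 CPM in NC lines, with overlapping groups (adjusted p = 0.225, edgeR). Tdrkh, which tethers PIWI proteins to mitochondria, had 0.0886, 0.265, and 2.21 CPM in BNC lines and 4.37 to 5.45 CPM in NC lines (adjusted p = 0.144, edgeR). With 1 line left out its adjusted p ran from 0.00681, without JB97, to 0.336 (edgeR), and without JB97 the BNC group is the near-identical pair JB81 and JB91. Of the piRNA genes not tested, Dnmt3l, the cofactor of germline DNA methylation, had 25 and 22 reads in JB84 and JB93 and at most 3 elsewhere. The remaining untested piRNA genes had at most 6 reads in any line.

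**Figure D3:**
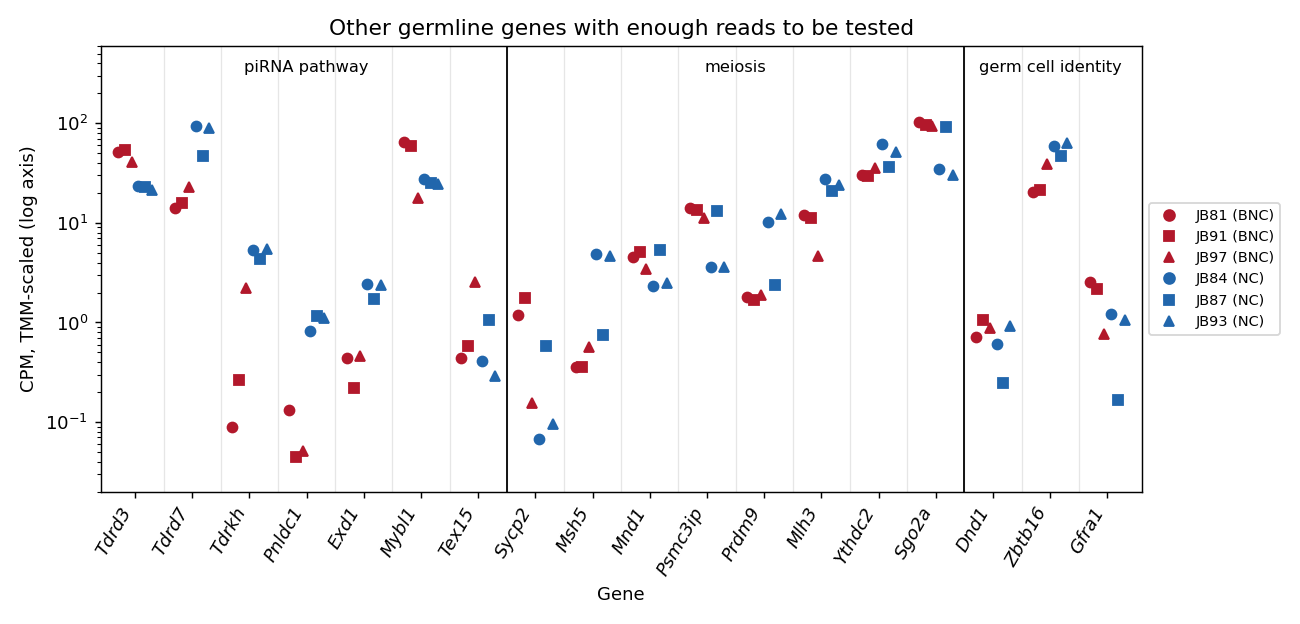
TMM-scaled CPM (log axis) of the 18 other germline genes that were tested, grouped into the piRNA pathway, meiosis, and germ cell identity, with a point for each of the 3 BNC lines (red) and 3 NC lines (blue). Tdrd7, Pnldc1, and Exd1 lie higher in the NC lines and Tdrd3 in the BNC lines. Every NC line is above every BNC line in 9 of the 18 genes (50%, against 21.4% of all tested genes). Among the 9, Pnldc1, Exd1, Msh5, and Tdrkh passed the filter on low counts only with the help of the NC lines.

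In the meiosis list 8 genes were tested and 0 passed either 0.01 or 0.05 (11.6% of all tested genes passed 0.05), while 4 had an unadjusted p under 0.05 by edgeR (35.6% of all tested genes did). DESeq2 tested 15 of the meiosis genes and called 3 (14.8% of all its genes were called), all higher in NC lines, Mlh3 (adjusted p = 0.00656), Msh5 (adjusted p = 0.00198), and Prdm9 (adjusted p = 0.00392). The reads of Msh5 lie mainly in JB84 and JB93, so its direction is not read as a result. Sgo2a, a protector of centromere cohesion that dividing somatic cells also express, was the most abundant, at 103, 96.7, and 93.9 CPM in BNC lines and 34.5, 92.5, and 30.1 CPM in JB84, JB87, and JB93. JB87 was thus near the BNC lines (adjusted p = 0.198, edgeR, and 0.000984 to 0.45 with 1 line left out, the lowest without JB87). Ythdc2, a reader of methylated RNA needed at meiotic entry, was at 29.6 to 35.5 CPM in BNC lines and 62.1, 36.3, and 51.8 CPM in NC lines (adjusted p = 0.0994, edgeR). Mlh3, a mismatch repair gene of crossing over, had 271, 251, and 91 reads in BNC lines and 403, 254, and 504 reads in NC lines, every NC line being higher in CPM (log2 fold change -1.38, SE 0.38, adjusted p = 0.061, edgeR). Psmc3ip, a recombination factor, was at 11.3 to 14.2 CPM in BNC lines and 3.60, 13.1, and 3.62 CPM in NC lines (adjusted p = 0.268, edgeR).

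Msh5, a partner of Msh4 in crossing over, and Prdm9, which places recombination hotspots, had a like profile. Msh5 had 8, 8, and 11 reads in BNC lines and 72, 9, and 97 reads in JB84, JB87, and JB93 (log2 fold change -3.01, SE 0.76, adjusted p = 0.0508, edgeR). Prdm9 had 41, 38, and 37 reads in BNC lines and 151, 29, and 257 reads in NC lines (log2 fold change -2.21, SE 0.61, adjusted p = 0.0617, edgeR). In both, JB84 and JB93 were the high lines. JB87, the shallowest library, had 0.742 CPM of Msh5 and 2.39 CPM of Prdm9, against at most 0.567 and 1.91 CPM in the BNC lines, so every NC line was above every BNC line in both genes. With 1 line left out their adjusted p-values ran from 0.0019 to 0.189 for Msh5 and from 0.0013 to 0.207 for Prdm9 (edgeR), the lowest being those without JB87, where the NC group is the near-identical pair JB84 and JB93. Some untested meiotic genes were read in JB87 instead, Sycp1 at 23 reads against at most 3 in the others, and Rec114 at 16 reads against 0. Syce2, a central element gene of the synaptonemal complex, had 51 reads in JB87 and 36 in JB97 and at most 7 in the others. These 3 untested genes were picked out after their values had been seen.

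Of the germ cell identity genes, Zbtb16, a transcription factor of spermatogonial stem cells with somatic roles as well, was the most abundant. It was read at 20.4, 21.4, and 39.4 CPM in BNC lines and 59.7, 46.6, and 63.6 CPM in NC lines, and its log2 fold change of -1.07 did not pass the test (SE 0.30, adjusted p = 0.0652, edgeR). Gfra1, the GDNF receptor of those stem cells, was at most 2.52 CPM in any line (adjusted p = 0.321, edgeR), and Dnd1, a germ cell RNA-binding gene, at most 1.06 CPM (adjusted p = 0.48, edgeR). Taf7l, a germ cell variant of a transcription factor subunit, had 58 and 65 reads in JB84 and JB93, none in JB87, and at most 7 in BNC lines. In the late spermatogenesis list no gene had more than 3 reads in any line, and Hspa1l, Zpbp, Odf1, and Pgk2 were the 4 with any read. The protamine genes Prm1 and Prm2 had 0 reads in all 6 lines.

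Of the 103 listed genes, 26, 25, and 27 were above the floor in JB81, JB91, and JB97 and 27, 23, and 29 in JB84, JB87, and JB93, a count of reads that the greater depth of the BNC libraries favors. Above 1 CPM, which is scaled to depth, there were 12, 13, and 13 genes in the BNC lines (11.7% to 12.6%) and 17, 17, and 18 in the NC lines (16.5% to 17.5%). Over all 27197 genes the share above 1 CPM was also higher in every NC line, at 42.7% to 42.8% against 41.3% to 41.9% in BNC lines, and the differences were not tested. Their summed level was 328, 318, and 286 CPM in the BNC lines and 372, 334, and 350 CPM in the NC lines. Markers of other cell types were read as well. Of 12 leukocyte markers, 8 were at or under 3 reads in every line, Ptprc among them with at most 1 read. The summed leukocyte level was 40.1, 44.4, and 4.69 CPM in BNC lines and 4.89, 3.96, and 5.45 CPM in NC lines, with Lyz2 the most abundant gene in JB81 and JB91 (37.3 and 41.3 CPM) and Cd68 in the other lines. Of 9 Sertoli cell markers, 4 were at or under 3 reads in every line, and the summed level was 93.2, 97.4, and 50.4 CPM in BNC lines and 24.8, 33.2, and 25.7 CPM in NC lines, most of it Sox9 and Gata4, which are also somatic regulators elsewhere. Their part in the germline gene result was not tested. Rhox5, an X-linked homeobox gene of that list, had 1 read in each BNC line and 31, 6, and 39 reads in NC lines.

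The genes next to Piwil2 and Tex11 on the chromosome were read to see whether the difference is shared by the surroundings. Of the 8 nearest coding genes, 2 on each side of each, 0 were called at an adjusted p under 0.01 by edgeR, 2 (Gdpd2 and Dlg3) had an unadjusted p under 0.05, and DESeq2 called 1 (Gdpd2), where the shares over all genes were 1.1%, 35.6%, and 14.8%. Beside Piwil2, Polr3d, an RNA polymerase III subunit gene 9.4 kb away, was at 30.3 to 36.6 CPM in BNC lines and 34.7 to 36.4 CPM in NC lines (log2 fold change -0.13, SE 0.14, adjusted p = 0.523, edgeR). Slc39a14, a metal transporter gene 21.1 kb away on the other side, was at 68.4 to 116 CPM in BNC lines and 40.9 to 81.0 CPM in NC lines (adjusted p = 0.244, edgeR). Ppp3cc (adjusted p = 0.402) and Phyhip (adjusted p = 0.469) did not pass the edgeR test either.

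Beside Tex11, Dlg3, a scaffold gene 20.2 kb away, was at 9.74 to 13.0 CPM in BNC lines and 14.6 to 22.2 CPM in NC lines (log2 fold change -0.60, SE 0.24, adjusted p = 0.137, edgeR). Slc7a3, an amino acid transporter gene 19.5 kb away, had at most 1.54 CPM in any line (adjusted p = 0.639, edgeR), and Snx12 was at 50.9 to 58.5 CPM in all 6 lines (adjusted p = 0.357, edgeR). Gdpd2, which encodes a phosphodiesterase, lies 99.8 kb from Tex11 and went the opposite way, with 234, 242, and 33 reads in JB81, JB91, and JB97 and 3 reads in each NC line. Its log2 fold change was 5.24 (SE 0.86, adjusted p = 0.02, and 0.00194 to 0.1 with 1 line left out, edgeR). Gdpd2 was at the floor in every NC line and passed the count filter through the BNC lines alone, so it had to differ. Its edgeR test and its DESeq2 call therefore carry no information on the direction.

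**Figure D4:**
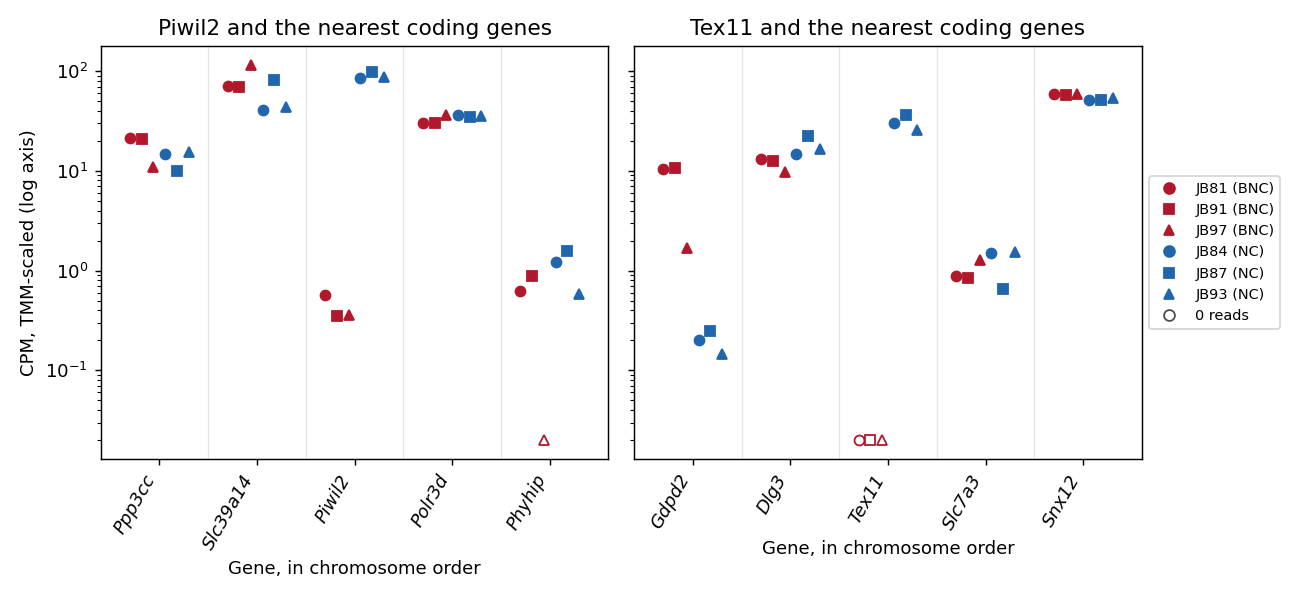
TMM-scaled CPM (log axis) of Piwil2 (left) and Tex11 (right) with the 2 nearest coding genes on each side in chromosome order, with a point for each BNC line (red) and NC line (blue) and open symbols for 0 reads. The gap of Piwil2 (0.43 against 89.8 CPM) and of Tex11 (0 against 30.7 CPM) is not seen in the genes beside them, and Gdpd2 is higher in the BNC lines.

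Across all tested genes, the profiles nearest to Piwil2 over the 6 lines were sought by the root mean square difference of log2(CPM + 1), centred on each gene's mean. They were Kcnab2, a potassium channel subunit gene (0.253), the noncoding Gm12606 (0.436), Tex11 (0.523), Krt18 (0.539), and Bst1 (0.645). Piwil2 and Tex11 were chosen together for their levels in these lines, so their nearness to each other is a description and no finding. Nearest to Tex11 were Tfpi, a coagulation inhibitor gene (0.189), Nipsnap1 (0.316), Ptprq (0.322), the integrin gene Itga6 (0.342), and the protease gene Ctsc (0.38). Piwil2 was not among the 5 genes nearest to Tex11, and both lists rest on 6 lines in which 2 pairs are nearly the same.

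Genes of DNA methylation and chromatin that act on germline promoters in somatic cells were read last. Of 30 listed genes 29 were tested, and 0 were called by edgeR, while 8 had an unadjusted p under 0.05. Over all tested genes these shares were 1.1% and 35.6%. DESeq2 called 2 of 29 (Ezh2 and Tet1), against 14.8% of all its genes. Tet1 alone differed more than 2-fold at an adjusted p under 0.05 by edgeR, against 11.6% of all tested genes. Tet1, an enzyme that oxidizes methylated cytosine, was read at 10.6, 11.8, and 1.44 CPM in JB81, JB91, and JB97 and 0.611, 0.165, and 0.579 CPM in JB84, JB87, and JB93 (log2 fold change 4.09, SE 0.94, adjusted p = 0.0407, and up to 0.147 with 1 line left out). The BNC level thus rested mainly on JB81 and JB91. Ezh2, the Polycomb methyltransferase gene, was at 144 to 161 CPM in BNC lines and 66.6, 101, and 62.4 CPM in NC lines (log2 fold change 0.99, SE 0.22, adjusted p = 0.0374, and up to 0.149 with 1 line left out, edgeR), just under a 2-fold change. Asxl1, whose product is the partner of BAP1, was at 133 to 160 CPM in BNC lines and 74.4 to 100 CPM in NC lines (log2 fold change 0.83, SE 0.17, adjusted p = 0.0323, and up to 0.143 with 1 line left out, edgeR).

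The levels of Dnmt1, Uhrf1, and Hells divided the lines in another way, as did those of Sgo2a and Psmc3ip above. Dnmt1, the maintenance methyltransferase gene, was read at 342, 356, and 443 CPM in JB81, JB91, and JB97, at 346 CPM in the NC line JB87, and at 58.3 and 64.5 CPM in JB84 and JB93. Uhrf1, which guides DNMT1 to replicated DNA, was at 229 to 250 CPM in BNC lines, 261 CPM in JB87, and 37.8 and 38.5 CPM in JB84 and JB93. Hells, a remodeler needed for methylation, was at 165 to 224 CPM in BNC lines, 199 CPM in JB87, and 42.1 and 39.3 CPM in JB84 and JB93. In all 3 genes JB87 lay with the BNC lines, and none passed the test (adjusted p = 0.25, 0.355, and 0.315, edgeR). Without JB87, where the NC group is the near-identical pair JB84 and JB93, all 3 were called (adjusted p = 0.000894, 0.000376, and 0.0014, edgeR), and with other lines left out the adjusted p reached 0.5, 0.633, and 0.599. Trim28, a corepressor gene, was at 412 to 419 CPM in BNC lines and 156, 389, and 163 CPM in JB84, JB87, and JB93 (adjusted p = 0.179, edgeR).

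Subunits of the Polycomb complex that binds E-box and E2F motifs were not called either. Mga was at 89.2 to 111 CPM in BNC lines and 98.1 to 147 CPM in NC lines (adjusted p = 0.241), E2f6 at 40.3 to 52.4 and 49.2 to 65.2 CPM (adjusted p = 0.169), L3mbtl2 at 38.2 to 44.1 and 28.4 to 36.5 CPM (adjusted p = 0.147), and Pcgf6 at 16.5 to 18.0 and 20.0 to 23.3 CPM (adjusted p = 0.172), all by edgeR. Rybp, another subunit gene, was at 43.3 to 64.9 CPM in BNC lines, at least 115 CPM in JB84 and JB93, and 49.4 CPM in JB87 (adjusted p = 0.146, and 0.00976 to 0.373 with 1 line left out, edgeR). The heterochromatin gene Cbx3 (adjusted p = 0.577) and the demethylase gene Kdm5c (adjusted p = 0.158) did not pass the edgeR test either. These are levels of RNA, and neither promoter methylation nor the chromatin profiles of the series were analysed here.

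**Figure D5:**
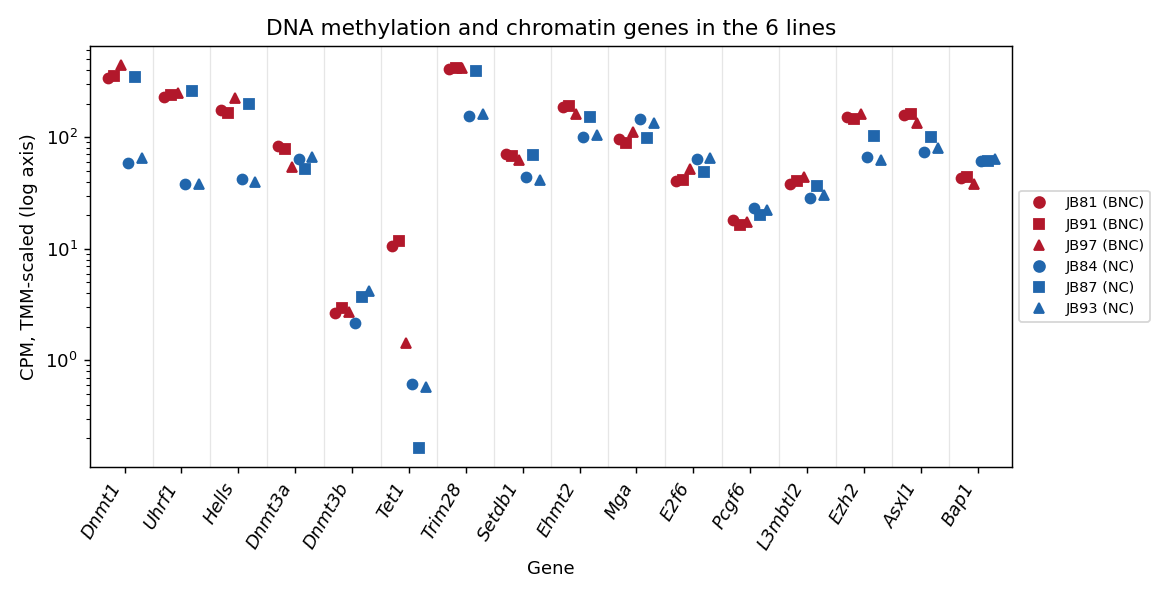
TMM-scaled CPM (log axis) of 16 DNA methylation and chromatin genes in the 3 BNC lines (red) and 3 NC lines (blue). Dnmt1, Uhrf1, Hells, and Trim28 are low in the NC lines JB84 and JB93 but not in JB87, and Tet1 is highest in JB81 and JB91.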

How the data were processed

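RNA of 6 cell lines was analysed. The authors deposited counts, the unscaled number of reads on each Ensembl gene from poly-A–selected, single-end libraries, mapped with TopHat2 2.0.12 to mm10 and counted with HTSeq. Nonprimary alignments and those of low mapping quality were discarded by the authors, and the strand setting is not given in the sources used here. Lines were placed in BNC or NC by the column heads of a supplementary table. A further 23 per-sample columns (9 with RNA counts, 14 with DNA values), the tumors among them, match no single label and were not analysed here. Symbols were found for 98.5% of genes.

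Genes were filtered with filterByExpr (minimum count 10), scaled by TMM, and tested with edgeR 4.0.16 (glmQLFit and glmQLFTest) in R 4.3.3, without covariates, and DESeq2 1.42.0 was an alternative. Calls required a Benjamini-Hochberg adjusted p under 0.01 and a change above 2-fold. SE is the log2 fold change divided by the square root of F. RPKM uses merged exon length of GENCODE M21. The members and lists were chosen with earlier results of these data known, and genes named are the members, the 4 most abundant and the 3 of smallest p per list, neighbours, nearest profiles, and targeted genes, with these ranks applied to the germline and chromatin lists only. Genes picked after their values were known are the cell type markers named (Msln, Krt8, Krt18, Wt1, Calb2, Vim, Cdh2, Ptprc, Lyz2, Cd68, Sox9, and Gata4), Prm1, Prm2, Exd1, Dnmt3l, Sycp1, Rec114, Syce2, Rhox5, Uhrf1, Hells, Tet1, Mga, E2f6, L3mbtl2, Pcgf6, and Rybp. The test was checked on simulated counts with 200 changed genes.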

Additional observations from a re-analysis of the deposited data

How the results depend on the processing

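The count of 136 genes called between the lines depended strongly on the setting. It was 2017 with DESeq2, 83 with at least 10 reads in every line, and 1436 at an adjusted p under 0.05. It was 0 with counts of the near-identical pairs summed, and 1 with the library name prefix as a covariate, which was chosen after seeing the data. With 1 line left out it was between 0 and 2574, at 2574 without JB87 and 984 without JB97. Of the 18 other germline genes tested 0 were called (1.1% of all tested genes were). DESeq2 called 7 of 29 (14.8% of all its genes), and 4 of 18 passed at an adjusted p under 0.05 (11.6% of all tested genes). With 1 line left out 0 to 9 were called. There were 9 of 23 without JB87, against 2574 of 13091 genes in the whole test, and 4 of 23 without JB97, against 984 of 12991. Of the 29 methylation and chromatin genes tested 0 were called, against 2 with DESeq2, 1 at an adjusted p under 0.05, and 0 to 7 with 1 line left out. The 7 of 29 were called without JB87, where 2574 of 13091 genes were called in the whole test. Of the 8 neighbouring genes 0 were called. At an adjusted p under 0.05 there was 1, Gdpd2, which passed the count filter through the BNC lines alone. The cause of these shifts in counts was not tested. With a replicate block the 136 calls fell to 0 and the list counts stayed at 0. The block used the numbers in the column heads of the supplementary table. JB81 and JB84 share number 1 there, and JB91, JB97, and JB87 share number 2. JB93 has a number of its own and adds nothing to the blocked contrast, so the block is no regular pairing. Samples of equal number had deviations correlated at 0.12, -0.08, and 0.1, so the numbers were not taken to pair the lines. With log2(CPM + 0.1) the differences between NC and BNC lines became 7.43 for Piwil2, 8.25 for Tex11, 2.41 for Piwil4, 2.28 for Mael, 3.16 for Ddx4, 0.935 for Tdrd1, and -0.31 for Stag3, by construction of the smaller pseudocount. With 1 line left out, the difference in log2(CPM + 1) ranged from 0.78 to 1.27 for Piwil4, 0.034 to 1.58 for Mael, -0.047 to 0.559 for Tdrd1, and -0.26 to 0.093 for Stag3. The median CpG ratio of 0.756 was 0.675 over the 250 bases before the start. Depth limits every gene with few reads, and genes under 3 reads are undetected, not absent.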
